A study of Mus musculus with 29 samples.

Results

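The interaction of lactic acid with TGF-beta asks whether lactic acid moved a gene differently when TGF-beta was present. It was measured in conventional CD4+ T cells (Tcon) after 72 h of activation, as the lactic acid effect in medium with TGF-beta (TLA over T) minus the lactic acid effect in medium without it (SLA over S), on a log2 scale. The libraries were chosen by their labels for cell population, time and medium, which gave 11 of the 29 RNA-seq libraries of the series: 3 of TLA, 3 of T, 3 of SLA and 2 of S. All came from splenic CD4+ T cells of C57BL/6-Foxp3tm1Flv/J mice, whose Foxp3 gene, the lineage factor gene of regulatory T cells (Treg), carries a red fluorescent protein (RFP) reporter. The cells were activated in RPMI with 0.5 mM glucose, 50 IU/ml IL-2, 50 uM 2-mercaptoethanol, anti-CD3 at 1.25 ug/ml and anti-CD28 at 2.5 ug/ml. TLA cultures had 3 ng/ml TGF-beta and 10 mM lactic acid, T cultures had TGF-beta alone, SLA cultures had lactic acid alone, and S cultures had neither. The cells were sorted at the time point, and Tcon were the RFP-negative fraction, so in TLA and T they were what remained after cells with the reporter had been taken away. Replicate number 1 came from male mice and numbers 2 and 3 from female mice, and no source used here says that each library came from a separate animal, so p-values measure the spread between these libraries, which may be technical.

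TGF-beta is a cytokine that restrains the activation of T cells and, together with T cell receptor and IL-2 signals, induces Foxp3 in part of them. Lactic acid is the end product of glycolysis that accumulates with protons in inflamed and tumour tissue, and acid and lactate are both known to dampen effector functions of T cells. Growth cytokines such as IL-2 and GM-CSF belong to the effector programme, whereas Gimap GTPases belong to quiescent or naive T cells.

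The 11 libraries held between 9754511 and 14315313 counts assigned to genes (median 12735325). In a principal component analysis of all tested genes, component 1 held 58.0% of the variance and separated the media with TGF-beta from those without. Component 2 held 21.5% and separated the libraries with replicate number 1, at 17.4 to 54.2, from all others, at -39.9 to -2.60, so results are also given for numbers 2 and 3 alone. That choice leaves 1 S library, which is assumed to vary as the libraries of the other media do. CD4 T cell markers were high in every library. Of the marker genes of other cells, those of B cells summed to 185 to 195 CPM (counts scaled to a common library size) in TLA, 84.7 to 106 CPM in T, 104 to 139 CPM in SLA and 85.2 to 125 CPM in S, nearly all of it Ighm. Markers of CD8 T and NK cells summed to 138 to 232 CPM in TLA, 95.1 to 166 CPM in T, 34.7 to 41.2 CPM in SLA and 37.8 to 48.6 CPM in S. The largest parts in TLA and T were Xcl1 and Eomes, also listed here as a chemokine gene and a Th1 gene. Xcl1 had 35.3, 77.3 and 56.7 CPM in TLA and 50.6, 59.7 and 67.0 CPM in T. Eomes had 33.5, 79.7 and 71.3 CPM in TLA and 17.6, 49.7 and 45.1 CPM in T. The NK receptor genes Ncr1 and Klrb1c had at most 0.32 CPM in any library. Of these 12 genes 1, the NK receptor gene Klra8, was at 0 in every library. The NK receptor gene Klrk1 had 28.1, 23.5 and 30.7 CPM in TLA and 9.67, 13.6 and 19.0 CPM in T. In SLA Klrk1 had 8.08, 3.70 and 5.54 CPM, and in S 6.95 and 3.87 CPM. Prf1 had 3.44, 2.15 and 1.71 CPM in TLA and 0.589, 1.00 and 1.48 CPM in T. In SLA Prf1 had 7.90, 2.75 and 7.17 CPM, and in S 12.6 and 4.86 CPM. Myeloid marker sums were 34.0 to 39.6 CPM in TLA, 31.7 to 34.6 CPM in T, 44.8 to 74.3 CPM in SLA and 46.9 to 82.3 CPM in S. Of these 17 genes 5 were at 0 in every library, Cd14 and Clec9a among them. Cst3 made up most of each sum, with 30.1, 30.6 and 33.6 CPM in TLA and 27.6, 30.8 and 28.3 CPM in T. In SLA Cst3 had 69.4, 39.6 and 54.2 CPM, and in S 77.1 and 40.0 CPM. The part of these cells in the results below was not tested, and in bulk RNA fewer cells of a type and less RNA per cell cannot be told apart.

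Genes of the Gimap family were higher in TLA than in T, while the activation marker Cd83 and the growth cytokine genes Il2 and Csf2 were lower in TLA than in T, and none of these passed in SLA against S. Of 13783 genes tested with edgeR's quasi-likelihood test, with replicate number as a block, 77 had an interaction at an adjusted p below 0.05 (0.559% of the genes tested), 32 positive (0.232%) and 45 negative (0.326%). Lactic acid with TGF-beta (TLA over T) passed for 1255 genes (9.11%), 538 higher (3.9%) and 717 lower (5.2%). Without TGF-beta (SLA over S) 17 genes passed (0.123%), 2 higher (0.0145%) and 15 lower (0.109%). An unadjusted p below 0.05 was reached by 3242 genes with TGF-beta and 1925 without, and the median size of the lactic acid effect was 0.16 (log2) with TGF-beta and 0.15 without. The SLA over S comparison had 2 S libraries, so its power was not that of TLA over T, and the difference between these counts is not itself a test. Across all tested genes the lactic acid effects with and without TGF-beta had a Pearson correlation of 0.32 (Spearman 0.22), given as a description across genes that share the same libraries. The median interaction over all tested genes was -0.01 (log2). The count of 77 depended on single libraries: without TLA replicate 3 it was 2 (Gimap3 and Cd83), without TLA replicate 1 it was 357, and without any other library it lay between 5 (S replicate 1) and 42 (S replicate 2), while numbers 2 and 3 alone gave 24. Without TLA replicate 3, T replicate 1, T replicate 2 or T replicate 3, the count for TLA over T was 532, 596, 556 and 716 in turn, and numbers 2 and 3 alone gave 791. For SLA over S the count lay between 0 (without S replicate 1 or SLA replicate 1) and 81 (without TLA replicate 1), and numbers 2 and 3 alone gave 3. All 77 genes kept their sign in all 20 settings tried.

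Of the 77 genes, 75 are protein coding, and 74 also passed in TLA over T, of which 31 rose and 43 fell with lactic acid. In SLA over S 0 of the 77 passed in edgeR, where 14 of the 32 positive genes (4 higher, 10 lower) and 23 of the 45 negative genes (17 higher, 6 lower) had an unadjusted p below 0.05, and DESeq2 called 4 in each set. The size of the lactic acid effect was larger with TGF-beta in 69 genes and larger without it in 8. In 31 genes both effects had the same sign and the one with TGF-beta was larger, in 10 the effects had opposite signs with each at least 0.5 on the log2 scale, and 36 fell in neither class. A lactic acid effect of at least 1 on the log2 scale was reached by 39 of the 77 genes with TGF-beta and by 1 without. Libraries of TLA and T did not overlap for 68 of the 77 genes (88.3%), and those of SLA and S for 26 (33.8%). Over all tested genes the share was 16.9% for each pair. The 77 genes were chosen by a difference that includes these same libraries, so their shares are a description and not separate evidence. S has fewer libraries than the other media, so SLA and S separate more easily by chance. The pairs are therefore not compared with each other.

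**Figure D1:**
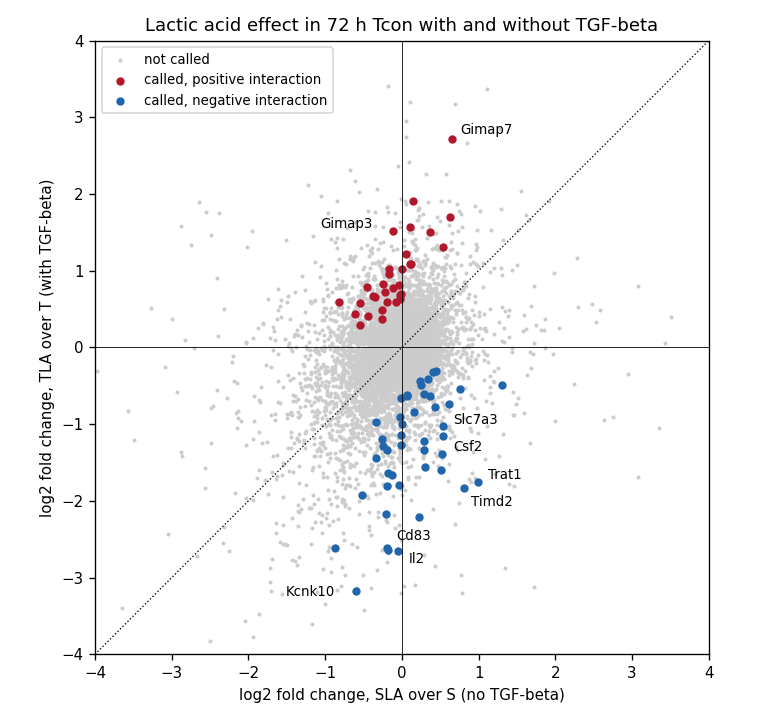
Lactic acid effect of each tested gene with TGF-beta (TLA over T, vertical axis, log2 fold change) against that without TGF-beta (SLA over S, horizontal axis, log2 fold change); the dotted line marks equal effects, and 24 points lie outside the axes. Genes called in the interaction are coloured, 32 positive (above the line) and 45 negative (below it), and most of them spread up or down the vertical axis while staying near 0 on the horizontal one.

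The order of the group means is given as a description, since the genes were chosen by the sign of a difference that includes these means. Among the 32 positive genes the highest mean was in TLA for 25, and the lowest was in T for 13 and in SLA for 18. Among the 45 negative genes the lowest mean was in TLA for 40, and the highest was in T for 9, in SLA for 23 and in S for 13. Expressed as a TGF-beta effect, the median of the positive genes was 1.00 with lactic acid (TLA over SLA) and 0.04 without it (T over S), and that of the negative genes was -2.02 with lactic acid and -0.78 without it (log2). The difference of differences could also be taken inside each replicate number that has all 4 media, on log2(CPM + 1). Its median over the positive genes was 0.85 for number 1 and 1.05 for number 2, and over the negative genes -1.18 for number 1 and -0.92 for number 2, and all 77 genes had the same sign in both numbers. The genes were chosen with both numbers in the fit, so this describes the spread and is no separate evidence.

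The Gimap GTPases are a family of small immunity-associated GTPases of lymphocytes, encoded side by side on chromosome 6. They are known for supporting the survival of resting T cells. All 8 members tested had a positive interaction, with a median of 1.06 (log2), and 7 passed, against 0.232% of all tested genes. Lactic acid raised all 8 with TGF-beta (median 1.08), against 3.9% of all tested genes. Without TGF-beta 0 of 8 passed in edgeR (median 0.05), 2 had an unadjusted p below 0.05 and DESeq2 called 0. T held the lowest group mean for 8 of 8 members, and their median TGF-beta effect was -0.01 with lactic acid (TLA over SLA) and -0.97 without it (T over S). Libraries of TLA and T did not overlap for 8 of 8, and those of SLA and S overlapped for all 8. Over all tested genes 16.9% did not overlap in each pair, but S has fewer libraries, so the pairs are not compared with each other.

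Gimap3 had 171, 180 and 154 CPM in the TLA libraries, 69.5, 54.4 and 53.1 CPM in T, 175, 202 and 165 CPM in SLA, and 211 and 197 CPM in S. The T libraries stood alone at a low level, and TLA overlapped SLA. Its interaction was 1.62 ± 0.14 (log2, SE) with an adjusted p of 0.000915 (edgeR, 3 TLA, 3 T, 3 SLA and 2 S libraries, as in all interaction values here), from a rise of 1.51 ± 0.10 with TGF-beta and a value of -0.11 ± 0.11 without it. Gimap4 had 304, 337 and 313 CPM in TLA, 114, 123 and 99.7 CPM in T, 149, 204 and 180 CPM in SLA, and 124 and 156 CPM in S. Unlike Gimap3, it was highest in TLA, above every other library, and its interaction was 1.14 ± 0.13 (edgeR adjusted p = 0.00884). Gimap7 had 17.4, 15.1 and 17.9 CPM in TLA, 1.60, 2.62 and 3.65 CPM in T, 14.7, 29.4 and 19.9 CPM in SLA, and 9.21 and 17.2 CPM in S, again with T below all other libraries. It had the widest interaction of the family, 2.06 ± 0.37 (edgeR adjusted p = 0.0392). Gimap5, which keeps naive T cells alive, had 40.3, 44.0 and 46.3 CPM in TLA, 19.1, 21.7 and 23.5 CPM in T, 75.1, 72.7 and 80.2 CPM in SLA, and 88.2 and 77.3 CPM in S. TLA lay between T and the media without TGF-beta, with no overlap on either side, and the interaction was 1.19 ± 0.13 (edgeR adjusted p = 0.0056). Gimap6, the member that did not pass, had an interaction of 0.77 ± 0.19 with an adjusted p of 0.108, and Gimap1 passed at 0.85 ± 0.11 (edgeR adjusted p = 0.0150). Gimap3 and Gimap5 are closely similar genes, so counts between the pair are uncertain. The number of Gimap genes that passed depended on single libraries: it was 1 without TLA replicate 3, 2 without S replicate 1, 3 without SLA replicate 1 or without T replicate 2, 4 without T replicate 1, S replicate 2 or SLA replicate 3, 5 without TLA replicate 2 or T replicate 3, and 7 without TLA replicate 1 or SLA replicate 2, while the median stayed between 0.98 and 1.16. With numbers 2 and 3 alone, 4 of the 8 passed with a median of 1.07, and with no replicate block 1 passed. When each library was left out in turn, Gimap3 passed in all 11 fits (1.53 to 1.76) and Gimap4 in 10, with an adjusted p of 0.075 without TLA replicate 3, while Gimap5 missed without S replicate 1 (adjusted p = 0.0510) and without TLA replicate 3 (adjusted p = 0.0563), and Gimap1 and Gimap7 passed in 6 and 4 of the 11, with largest adjusted p-values of 0.155 and 0.193. The wider list of 20 naive and quiescent T cell genes did not share this direction: 12 interactions were positive and 8 negative, with a median of 0.08 and 1 that passed, and lactic acid with TGF-beta raised 6 and lowered 4 (edgeR).

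Art2b, an ADP-ribosyltransferase on the T cell surface, had 1.76, 6.56 and 4.27 CPM in TLA, 0.841, 1.31 and 1.09 CPM in T, 4.39, 12.5 and 8.14 CPM in SLA, and 3.94 and 11.1 CPM in S. Each T library was below every library of the other media, and SLA overlapped S. Its interaction was 1.76 ± 0.31 (edgeR adjusted p = 0.0376), with a rise of 1.91 ± 0.24 with TGF-beta and a value of 0.15 ± 0.19 without. Ly6a, encoding the activation-linked antigen Sca-1, differed in that lactic acid went with higher levels in both media: 538, 800 and 815 CPM in TLA, 209, 355 and 310 CPM in T, 363, 434 and 412 CPM in SLA, and 221 and 319 CPM in S. It rose by 1.31 ± 0.09 with TGF-beta, against 0.54 ± 0.11 without (adjusted p = 0.112, not passed), and the interaction was 0.77 ± 0.14 (edgeR adjusted p = 0.0441). Ly6c1, of the same antigen family, had 16.3, 20.5 and 12.9 CPM in TLA, 1.43, 1.62 and 1.79 CPM in T, 1.23, 4.20 and 1.95 CPM in SLA, and 0.335 and 2.13 CPM in S. TLA was far above every other library and the rise with TGF-beta was 3.37 ± 0.32, but the interaction of 2.25 ± 0.61 did not pass (edgeR adjusted p = 0.14). Of the 5 Ly6 antigen genes tested, 4 had a positive interaction and 1 passed. Art2b and Ly6a each passed in 2 of the 11 fits with a library left out, with largest adjusted p-values of 0.2 and 0.255, and kept their signs in all 11.

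**Figure D2:**
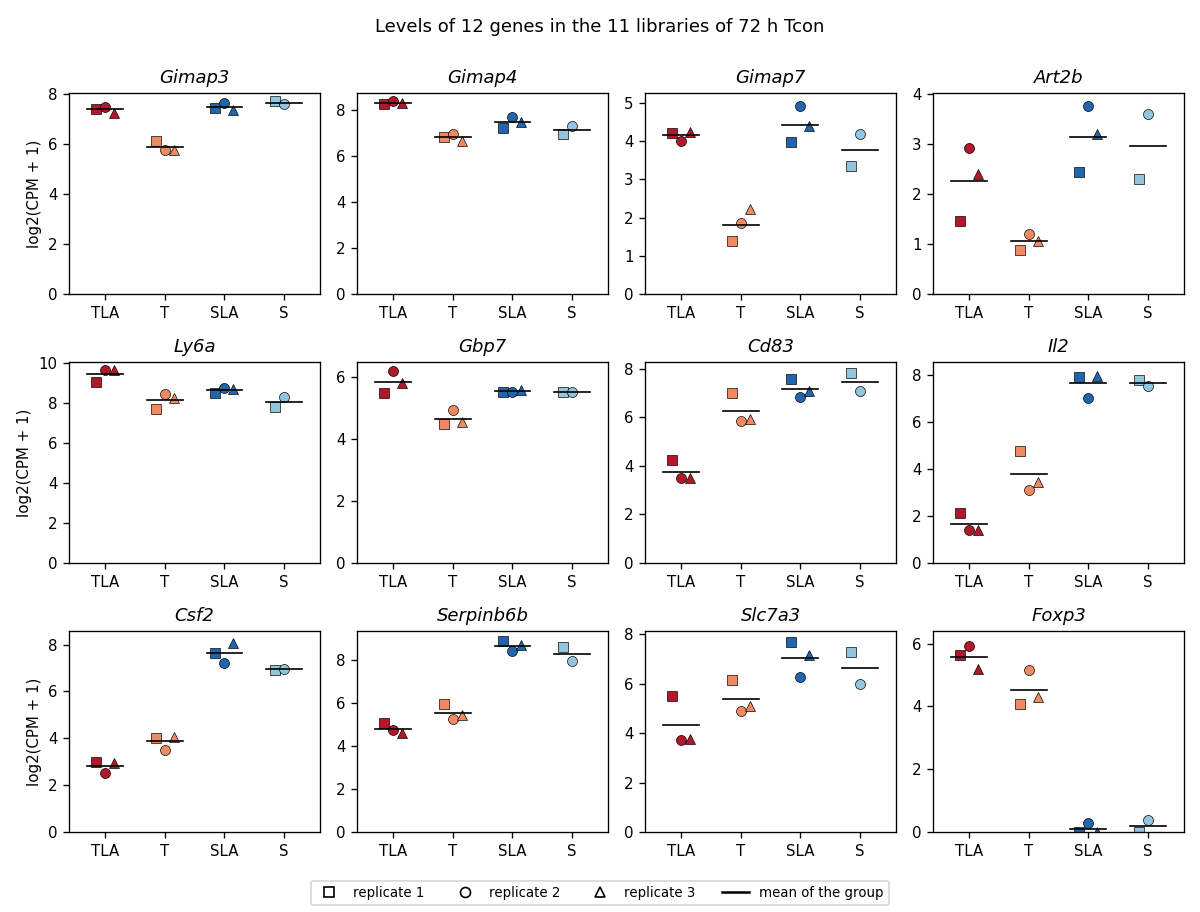
Levels of 12 genes in the 11 libraries of 72 h Tcon, as log2(CPM + 1) on the vertical axis, by medium (TLA, T, SLA, S) on the horizontal axis; point shapes give the replicate number and the lines the group means. For Gimap3, Gimap7 and Art2b the T libraries sit apart at a low level, for Cd83 and Il2 the TLA libraries are lowest with SLA and S alike, and Foxp3 lies near 0 in SLA and S.

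The genes that were lower with lactic acid when TGF-beta was present included activation and growth cytokine genes. Cd83, a surface protein of activated lymphocytes and dendritic cells, had 17.8, 10.3 and 10.3 CPM in TLA, 128, 56.4 and 59.9 CPM in T, 189, 113 and 136 CPM in SLA, and 224 and 135 CPM in S. Every TLA library was below every other library, and SLA and S overlapped. The interaction was -2.46 ± 0.18 with an adjusted p of 0.000239 (edgeR), the smallest of all genes tested, from -2.64 ± 0.13 with TGF-beta and -0.18 ± 0.12 without. It passed in all 11 fits with a library left out, at -2.54 to -2.25. Il2, the main T cell growth factor, had 3.44, 1.64 and 1.63 CPM in TLA, 26.4, 7.56 and 10.0 CPM in T, 243, 130 and 251 CPM in SLA, and 220 and 183 CPM in S. It was low in both media with TGF-beta, lowest in TLA, and SLA overlapped S. The interaction was -2.61 ± 0.48 (edgeR adjusted p = 0.0449) from -2.66 ± 0.40 with TGF-beta and -0.05 ± 0.27 without, and it missed the threshold in 8 of the 11 fits with a library left out, with a largest adjusted p of 0.22, without TLA replicate 3. IL-2 protein had been added to all media, which the transcript counts do not report.

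In several other genes the lactic acid values had opposite signs with and without TGF-beta, but those without TGF-beta did not pass. For Trat1, Serpinb6b and Stra6 they had adjusted p-values of 0.249, 0.127 and 0.224 in turn (edgeR). Csf2, encoding GM-CSF, a growth factor of myeloid cells, had 7.04, 4.72 and 6.68 CPM in TLA, 15.1, 10.5 and 15.8 CPM in T, 198, 147 and 265 CPM in SLA, and 121 and 124 CPM in S. TLA lay below T and SLA lay above S, in both cases with no overlap. The interaction was -1.69 ± 0.21 (edgeR adjusted p = 0.00978), from a fall of 1.16 ± 0.16 with TGF-beta and a value of 0.53 ± 0.13 without that did not pass (adjusted p = 0.131), and it missed in 1 of the 11 fits, without TLA replicate 3 (adjusted p = 0.103). Trat1, a transmembrane adaptor bound to the T cell receptor, had 23.2, 8.20 and 5.05 CPM in TLA, 74.8, 26.7 and 22.9 CPM in T, 197, 114 and 177 CPM in SLA, and 102 and 80.3 CPM in S. TLA replicate 1 just overlapped T replicate 3, SLA lay above S with no overlap, and the interaction was -2.75 ± 0.47 (edgeR adjusted p = 0.0376), the most negative of the 77. Serpinb6b, an intracellular protease inhibitor, had 32.8, 25.3 and 23.4 CPM in TLA, 60.3, 37.5 and 42.2 CPM in T, 461, 336 and 410 CPM in SLA, and 384 and 242 CPM in S. SLA and S overlapped for Serpinb6b, and its value without TGF-beta, 0.43 ± 0.10, was below the 0.5 asked of the class with opposite signs. The interaction was -1.20 ± 0.14 (edgeR adjusted p = 0.00884), and it missed in 1 fit, without TLA replicate 3 (adjusted p = 0.075). Stra6, a membrane transporter of retinol, had 6.08, 4.72 and 6.68 CPM in TLA, 15.5, 11.3 and 19.5 CPM in T, 70.1, 102 and 124 CPM in SLA, and 54.9 and 65.9 CPM in S. Its groups were in the same order as those of Csf2 with no overlap, with an interaction of -1.91 ± 0.26 (edgeR adjusted p = 0.0166) that missed without S replicate 1 (adjusted p = 0.0804) and without TLA replicate 3 (adjusted p = 0.134).

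Some strongly negative values rested on few counts in TLA. Kcnk10, a potassium channel subunit, had 3, 3 and 2 counts in TLA and 32, 19 and 27 counts in T, or 0.240, 0.308 and 0.155 CPM against 2.69, 1.46 and 2.10 CPM, while SLA had 36.2, 21.1 and 36.5 CPM and S had 59.9 and 30.6 CPM. Its interaction was -2.57 ± 0.38 (edgeR adjusted p = 0.0268). Timd2, a T cell immunoglobulin and mucin family member, had 4, 2 and 13 counts in TLA and 27, 19 and 26 counts in T, against 34.4, 62.7 and 79.0 CPM in SLA and 19.9 and 36.2 CPM in S. The interaction was -2.64 ± 0.51 (edgeR adjusted p = 0.0485). Cth, the enzyme that makes cysteine from cystathionine, had 13.1, 4.31 and 3.58 CPM in TLA, 33.7, 14 and 13.8 CPM in T, 243, 76.0 and 176 CPM in SLA, and 176 and 69.1 CPM in S. Replicate number 1 was the highest in each medium, and the interaction was -2.11 ± 0.35 (edgeR adjusted p = 0.0323). Lmna, encoding the nuclear lamins A and C, showed another order: 2.32, 2.67 and 1.94 CPM in TLA, 9.42, 6.78 and 4.59 CPM in T, 5.09, 4.35 and 4.07 CPM in SLA, and 4.10 and 4.03 CPM in S. TLA was below all other libraries, T had the highest mean and overlapped SLA, and the gene had an interaction of -1.86 ± 0.30 (edgeR adjusted p = 0.0323). Kcnk10 passed in 7 of the 11 fits with a library left out and Timd2 in 1, with largest adjusted p-values of 0.155 and 0.186; over all 29 named genes that passed, the number of such fits ran from 1 to 11. Zbtb46 (-1.97 ± 0.38), a transcriptional repressor, Sh3bp4 (-1.74 ± 0.34), a regulator of endocytosis, and D430041D05Rik (-2.42 ± 0.45) also passed.

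The T helper 2 and growth cytokine list, which holds Csf2, had 12 negative interactions among 15 genes tested, against 51.3% of all tested genes. Its median was -0.95 and 1 gene passed. Lactic acid lowered 5 of the list with TGF-beta and raised 1 (edgeR), against 5.2% and 3.9% of all tested genes. Without TGF-beta 0 passed in edgeR, 5 higher and 2 lower genes had an unadjusted p below 0.05, and DESeq2 called 1. Il13, an effector cytokine of type 2 responses, had 8.16, 14.3 and 18.9 CPM in TLA, 9.84, 12 and 25.3 CPM in T, 154, 270 and 540 CPM in SLA, and 57.3 and 170 CPM in S, and its interaction of -1.24 ± 0.29 did not pass (edgeR adjusted p = 0.0919); it was picked after its values were seen. The median of the list was -0.43 without S replicate 1, -0.58 without SLA replicate 2, -1.26 without S replicate 2 and -0.56 with numbers 2 and 3 alone, where 2 genes passed; without TLA replicate 3 no gene of it passed.

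The transcription factor ATF4 and its targets make up the amino acid response, through which cells short of amino acids or under integrated stress raise amino acid transporters and synthesis enzymes. All 25 genes of this list were measured, and all 25 had a negative interaction, against 51.3% of all tested genes. Only Slc7a3 and Psph passed, 23 of the 25 had an unadjusted p below 0.05, and DESeq2 called 15 lower. The median interaction was -0.73 (log2), made of a median of -0.36 with TGF-beta and of 0.32 without. With TGF-beta 9 genes fell and 0 rose, against 5.2% and 3.9% of all tested genes. Without it 23 of 25 values were above 0, against 50.9% of all tested genes. Without TGF-beta 0 of the 25 passed in edgeR, 15 were higher at an unadjusted p below 0.05, and DESeq2 called 2 higher. TLA held the lowest group mean for 17 of the 25 genes, and the highest was in T for 9 and in SLA for 14. Libraries of TLA and T did not overlap for 1 of the 25 and those of SLA and S for 9. Over all tested genes the share was 16.9% for each pair. The pair with S has fewer libraries, so the pairs are not compared with each other. With no replicate block 0 of the 25 interactions passed in edgeR, with all 25 negative at a median of -0.60.

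Slc7a3, a transporter of arginine and lysine, had 43.9, 12.2 and 12.7 CPM in TLA, 70.4, 28.6 and 32.8 CPM in T, 206, 76.9 and 143 CPM in SLA, and 154 and 62.7 CPM in S. Replicate number 1 was the highest in each medium, so TLA overlapped T and SLA overlapped S, while within each number TLA was below T. The interaction was -1.56 ± 0.28 (edgeR adjusted p = 0.0392), from a fall of 1.02 ± 0.19 with TGF-beta and a value of 0.54 ± 0.20 without. Psph, which completes serine synthesis, had 86.1, 63.6 and 64.8 CPM in TLA, 92.5, 84.2 and 87.1 CPM in T, 239, 179 and 221 CPM in SLA, and 185 and 132 CPM in S, with an interaction of -0.76 ± 0.13 (edgeR adjusted p = 0.0376). Asns, asparagine synthetase, had 299, 141 and 186 CPM in TLA, 352, 248 and 289 CPM in T, 557, 393 and 568 CPM in SLA, and 453 and 314 CPM in S. Its interaction of -0.95 ± 0.19 missed the threshold (edgeR adjusted p = 0.053). Atf4 itself had 643, 393 and 427 CPM in TLA, 663, 586 and 571 CPM in T, 966, 836 and 940 CPM in SLA, and 777 and 719 CPM in S, with -0.66 (edgeR adjusted p = 0.125, not passed). Nupr1, a stress-induced nuclear protein, was high in T, with 41.4, 11.9 and 11.6 CPM in TLA, 70.0, 32.7 and 25.2 CPM in T, 41.9, 12.3 and 22.2 CPM in SLA, and 34.8 and 11.3 CPM in S, and its interaction was -1.49 (edgeR adjusted p = 0.0562, not passed). Asns, Atf4 and Nupr1 were picked after their values were seen. Within replicate number 1 the median of the list's difference of differences was -0.35, with 1 value above 0, and within number 2 it was -0.82, with 0 above 0. With numbers 2 and 3 alone 2 genes passed and the median was -0.87; over all settings tried the median lay between -0.87 and -0.59. The number that passed was 22 without TLA replicate 1, 2 without SLA replicate 3 and 0 without any 1 of the other 9 libraries.

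**Figure D3:**
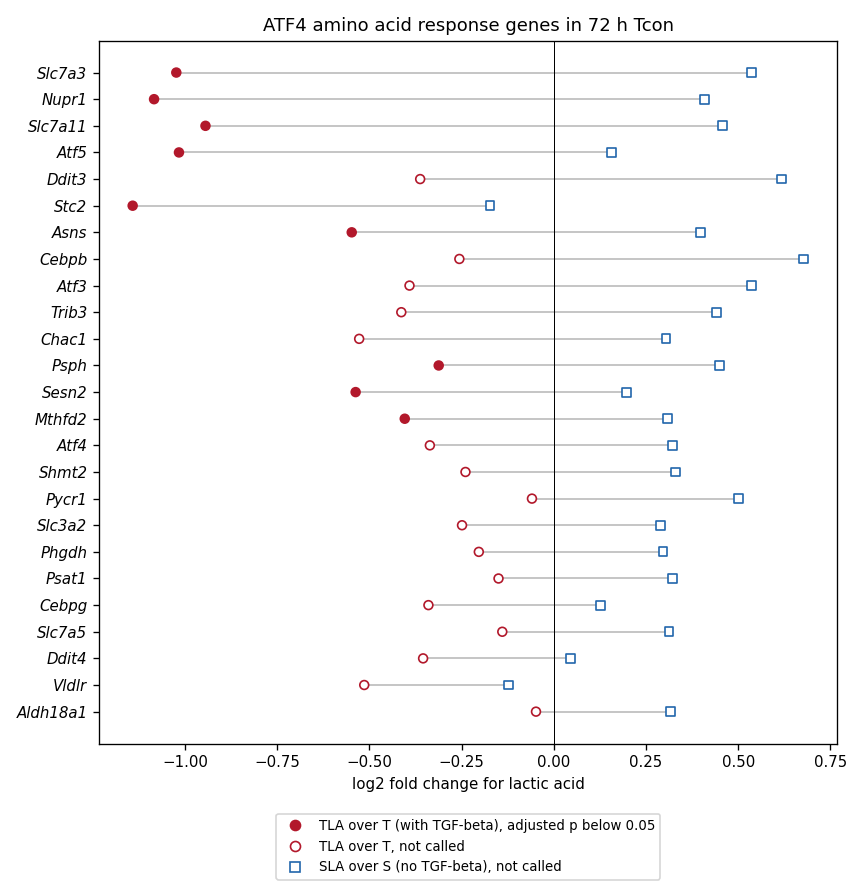
Lactic acid effect (log2 fold change, horizontal axis) of the 25 ATF4 amino acid response genes in 72 h Tcon with TGF-beta (circles, TLA over T, filled where the adjusted p was below 0.05) and without TGF-beta (squares, SLA over S), ordered by the size of the interaction. Every circle is left of its square; all 25 circles are below 0, 9 of them filled, and 23 of 25 squares are above 0.

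The amino acid response element TGATGNAA, the DNA letters that ATF4 and its partners are known to bind, was looked for on both strands of RefSeq promoters of build GRCm38.p6, from 250 bases before to 50 bases after each gene's start. It was present in 7 of the 23 promoters found for this list (30.4%), against 1096 of 27025 promoters of all genes (4.06%). The list is defined by known ATF4 targets, so this describes the list and says nothing of binding in these cells. Of the 18 positive and 38 negative called genes with a promoter entry, 0 held these letters in either set, and Slc7a3 has no entry. The promoters of Asns (chr6:7693160-7693459), Nupr1 (chr7:126625421-126625720), Slc7a11 (chr3:50443564-50443863) and Trib3 (chr2:152344011-152344310), all on the minus strand, are shown as 4 of the 7 in which the element was found; capitals mark it on the strand printed, so the reverse complement appears where the match is on the other strand. Slc7a11, the cystine transporter, carries 2 matches, and its interaction was -1.40; Trib3, a pseudokinase that feeds back on ATF4, had -0.85, and neither passed (edgeR).
Asns: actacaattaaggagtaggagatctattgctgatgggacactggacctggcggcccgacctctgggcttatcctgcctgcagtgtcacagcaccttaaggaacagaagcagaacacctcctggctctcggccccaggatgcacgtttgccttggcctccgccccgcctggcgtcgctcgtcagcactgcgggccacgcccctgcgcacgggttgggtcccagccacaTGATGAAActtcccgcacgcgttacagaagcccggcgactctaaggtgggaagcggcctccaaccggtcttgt
Nupr1: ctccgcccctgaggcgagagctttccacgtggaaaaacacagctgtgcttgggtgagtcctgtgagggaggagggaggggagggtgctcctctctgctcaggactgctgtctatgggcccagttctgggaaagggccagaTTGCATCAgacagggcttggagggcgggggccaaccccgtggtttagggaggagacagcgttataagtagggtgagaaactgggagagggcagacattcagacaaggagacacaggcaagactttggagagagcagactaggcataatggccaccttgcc
Slc7a11: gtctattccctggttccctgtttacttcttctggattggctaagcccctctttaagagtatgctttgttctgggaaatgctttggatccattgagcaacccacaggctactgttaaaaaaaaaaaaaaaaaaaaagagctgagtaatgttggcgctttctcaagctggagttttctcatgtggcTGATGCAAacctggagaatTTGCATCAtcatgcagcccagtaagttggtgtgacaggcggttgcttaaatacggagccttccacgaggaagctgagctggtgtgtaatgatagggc
Trib3: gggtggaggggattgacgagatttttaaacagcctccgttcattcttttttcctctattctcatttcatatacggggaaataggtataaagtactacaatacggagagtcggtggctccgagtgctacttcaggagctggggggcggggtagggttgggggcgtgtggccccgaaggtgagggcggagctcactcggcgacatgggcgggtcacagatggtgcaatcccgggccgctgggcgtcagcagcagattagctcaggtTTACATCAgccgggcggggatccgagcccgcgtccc

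The unfolded protein response, a neighbouring stress pathway of the endoplasmic reticulum, had 18 of 20 negative interactions, against 51.3% of all tested genes. Its median was -0.32. None of the 20 passed in edgeR (0 called; 7 at an unadjusted p below 0.05), and DESeq2 called 1. The heat shock chaperones had 11 of 13 negative with a median of -0.26 and 0 passed (edgeR; 5 at an unadjusted p below 0.05; DESeq2 called 0).

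Interferon-induced genes, which cells switch on in response to interferon and viral nucleic acid, leaned the other way. Of 22 genes tested 19 had a positive interaction and 3 a negative one, where 51.3% of all tested genes were negative. The median was 0.68 and Gbp7 passed. An unadjusted p below 0.05 was reached by 10 higher genes and 1 lower gene, and DESeq2 called 5 higher. Lactic acid raised 14 of the 22 with TGF-beta (median 0.69), against 3.9% of all tested genes. Without TGF-beta 0 passed in edgeR (median 0.10), 1 higher and 1 lower gene had an unadjusted p below 0.05, and DESeq2 called 0. TLA held the highest group mean for 17 of the 22. Ifit3 and Ifit3b, near-identical genes, had at most 3 counts in a whole group, and the median over the other 20 was 0.68. Gbp7, an interferon-induced guanylate-binding protein, had 44.6, 73.6 and 55.4 CPM in TLA, 21.8, 29.5 and 22.7 CPM in T, 45.3, 45.6 and 47.6 CPM in SLA, and 44.7 and 44.7 CPM in S. T was below all other libraries, SLA and S lay between 44.7 and 47.6 CPM, and the gene had an interaction of 1.16 ± 0.20 (edgeR adjusted p = 0.0376). Gbp7 missed the threshold in 9 of the 11 fits with a library left out, with a largest adjusted p of 0.218, without S replicate 1. With numbers 2 and 3 alone 2 genes of the list passed and the median was 0.81.

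Other named genes with a positive interaction included a sensor of nucleic acid and an antiviral gene. Zbp1, a sensor of left-handed nucleic acid that triggers cell death, had 67.4, 93.3 and 80.7 CPM in TLA, 37.8, 52.0 and 49.9 CPM in T, 31.3, 33.7 and 23.3 CPM in SLA, and 40.1 and 41.3 CPM in S. TLA lay above all other libraries and SLA below all of them, and the interaction was 1.24 ± 0.20 (edgeR adjusted p = 0.0323). Samd9l, an antiviral protein, had 96.3, 89.4 and 65.4 CPM in TLA, 46.7, 44.9 and 36.9 CPM in T, 32.7, 19.6 and 21.2 CPM in SLA, and 38.4 and 22 CPM in S, with an interaction of 1.13 ± 0.22 (edgeR adjusted p = 0.0488). Xdh, xanthine dehydrogenase of purine breakdown, had 69.8, 44.1 and 43.4 CPM in TLA, 30.6, 35.9 and 35.1 CPM in T, 25.9, 19.3 and 19.1 CPM in SLA, and 43.4 and 35.2 CPM in S. It went up with lactic acid by 0.60 ± 0.15 with TGF-beta and had -0.82 ± 0.17 without, where it did not pass (adjusted p = 0.112), and the interaction was 1.41 ± 0.23 (edgeR adjusted p = 0.0323). Abcb9, a lysosomal peptide transporter, had 38.6, 39.5 and 46.9 CPM in TLA, 8.66, 17.3 and 13.4 CPM in T, 63.9, 90.9 and 84.1 CPM in SLA, and 41.0 and 58.3 CPM in S. Lactic acid went with more Abcb9 in both media, by 1.70 ± 0.14 with TGF-beta and 0.63 ± 0.14 without, of which the first passed, and the interaction was 1.06 ± 0.20 (edgeR adjusted p = 0.0458). Il10ra, a chain of the IL-10 receptor, had an interaction of 0.74 ± 0.11 (edgeR adjusted p = 0.0323).

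The interferon-stimulated response element, GAAA followed by NN and GAAA again, the letters bound by interferon regulatory factors, was found in 11 of the 19 promoters of the interferon list (57.9%), against 3.49% of all promoters of the same length, searched on both strands. The list is defined by induction by interferon, so this describes the list and says nothing of binding in these cells. Of the called genes with a promoter entry, 1 of 18 positive (5.56%) and 1 of 38 negative (2.63%) held the element. The promoters of Gbp7 (chr3:142530086-142530385) and Gbp3 (chr3:142559794-142560093), both on the plus strand of GRCm38.p6, are shown for the member that passed and a neighbouring paralog; capitals mark the element, as its reverse complement where the match is on the other strand.
Gbp7: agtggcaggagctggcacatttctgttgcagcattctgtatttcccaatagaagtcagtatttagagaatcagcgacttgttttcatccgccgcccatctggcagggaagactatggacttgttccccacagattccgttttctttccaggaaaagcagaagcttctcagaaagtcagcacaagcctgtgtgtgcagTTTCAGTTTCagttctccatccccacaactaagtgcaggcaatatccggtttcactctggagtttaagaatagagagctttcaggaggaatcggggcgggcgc
Gbp3: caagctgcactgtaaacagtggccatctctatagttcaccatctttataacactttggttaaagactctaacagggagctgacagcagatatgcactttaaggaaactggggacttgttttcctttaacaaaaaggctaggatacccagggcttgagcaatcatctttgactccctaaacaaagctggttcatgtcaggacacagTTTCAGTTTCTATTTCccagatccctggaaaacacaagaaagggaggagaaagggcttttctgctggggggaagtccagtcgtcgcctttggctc

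The promoters of the 8 Gimap genes held the NFAT letters GGAAAANN in 3, against 23.5% of all promoters, and 0 matches to the other 5 motifs searched, which were the amino acid and interferon elements spelled out above, the AP-1 letters TGANTCA, the NF-kB letters GGGANTT followed by NCC, and the KLF letters GGGTGNGG, all on both strands. Cd83, Ly6a, Xdh and Zbp1 have no promoter entry in the table used.

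**Figure D4:**
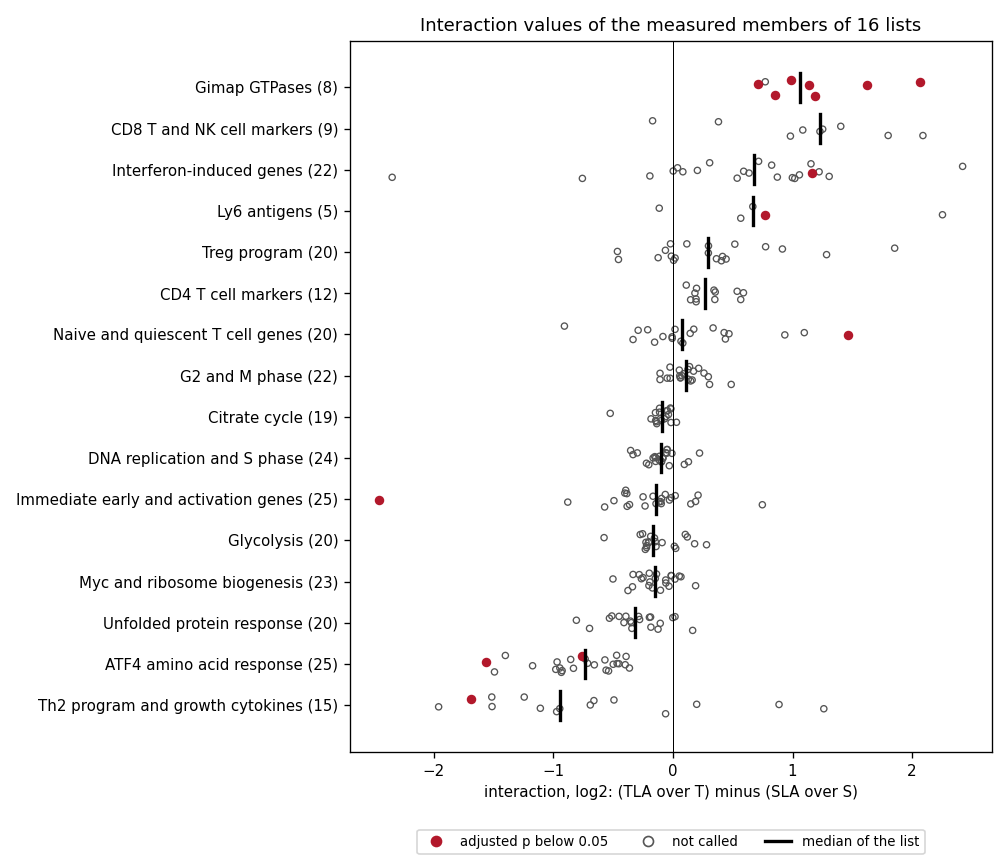
Interaction values (log2, horizontal axis) of the measured members of 16 gene lists, with the number measured in brackets; filled points passed at an adjusted p below 0.05, open points did not, and bars are medians. The Gimap and CD4 T cell marker lists lie wholly above 0 and the ATF4 list wholly below it. The citrate cycle, glycolysis and cell cycle lists sit close to 0.

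Lists of growth and energy metabolism had small values. The citrate cycle list had 18 of 19 negative interactions at a median of -0.10, glycolysis 14 of 20 at -0.17, Myc and ribosome biogenesis 19 of 23 at -0.15, and DNA replication 21 of 24 at -0.10, with 0 passed in each (edgeR; 1, 0, 2 and 2 genes at an unadjusted p below 0.05; DESeq2 called 0, 0, 1 and 0). The median of the DNA replication list changed sign in some settings, up to 0.02. Immediate early and activation genes had 20 of 25 negative at a median of -0.14, and Cd83 was the member that passed (edgeR). An unadjusted p below 0.05 was reached by 7 of these genes, and DESeq2 called 1. The mitochondrially encoded genes had 7 of 7 positive at a median of 0.47 with 0 passed (edgeR; 2 at an unadjusted p below 0.05; DESeq2 called 1). Their difference of differences had a median of 0.03 within replicate number 1, with 5 of 7 positive, and of 1.31 within number 2, with 7 of 7 positive. At 24 h their median interaction was -0.46, with 0 of 7 positive and 0 called. CD4 T cell markers had 12 of 12 positive at a median of 0.27 with 0 passed in edgeR. An unadjusted p below 0.05 was reached by 6 of these markers, and DESeq2 called 2. CD8 T and NK cell markers had 8 of 9 positive at a median of 1.23 with 0 passed (edgeR; 6 at an unadjusted p below 0.05; DESeq2 called 1). Cd8a had 5.12, 14.4 and 15.9 CPM in TLA, 1.85, 12.6 and 13.7 CPM in T, and at most 0.57 CPM in SLA and 0.46 CPM in S. The gene of the other CD8 chain, Cd8b1, did not share this pattern, and its media overlapped. It had 9.52, 8.20 and 6.92 CPM in TLA and 6.98, 5.32 and 4.97 CPM in T. In SLA Cd8b1 had 12.03, 5.94 and 6.76 CPM, and in S 10.7 and 5.55 CPM.

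The Treg programme was a list of interest because the series concerns Foxp3+ cells. Of its 20 genes 14 had a positive interaction with a median of 0.30, and 0 passed (edgeR; 3 at an unadjusted p below 0.05; DESeq2 called 0). Foxp3 had 49.2, 59.7 and 35.4 CPM in TLA and 15.7, 35.2 and 18.8 CPM in T, although these cells had been sorted as RFP-negative. The SLA libraries held 0, 3 and 0 counts and the S libraries 0 and 4 counts, so no lactic acid effect without TGF-beta could be measured and the interaction of 1.85 ± 1.43 (edgeR adjusted p = 0.615) is not read further. With TGF-beta Foxp3 rose by 1.10 ± 0.18 (edgeR adjusted p = 0.00401). Ikzf2, encoding the Treg transcription factor Helios, had 72.1, 61.2 and 48.0 CPM in TLA, 134, 94.1 and 75.2 CPM in T, 12, 10.6 and 12.5 CPM in SLA, and 26.2 and 16.9 CPM in S. Its lactic acid effect was -0.72 ± 0.12 with TGF-beta (edgeR adjusted p = 0.00503) and -0.73 ± 0.17 without (edgeR adjusted p = 0.127), and the interaction was 0.01 ± 0.20 (edgeR adjusted p = 0.994). Il2ra, the high-affinity IL-2 receptor chain, had -0.01 ± 0.17, and Itgae, the integrin chain CD103 that TGF-beta induces, had 0.30 ± 0.69, while Smad7, the feedback inhibitor of TGF-beta signalling, had 0.34 ± 0.24, and none of these passed (edgeR). The signs for Ikzf2, Il2ra and Itgae changed under some settings.

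Some named genes had a larger lactic acid effect without TGF-beta than with it. Among them Xdh and Psph, described above, had an interaction that passed. The interactions of Il6, Pdk2, Col27a1, Ccl1 and Xcl1 did not pass, so no difference between the media was shown for these genes. Il6, a proinflammatory cytokine, had 2, 2 and 0 counts in TLA, 5, 2 and 2 counts in T, 182, 121 and 336 counts in SLA, and 16 and 15 counts in S. It rose by 3.35 ± 0.36 without TGF-beta (edgeR adjusted p = 0.0058), and its interaction of -4.41 ± 1.07 rested on 4 counts in TLA and 9 in T and did not pass (edgeR adjusted p = 0.103). Pdk2, a kinase that holds back pyruvate oxidation, fell by 2.41 ± 0.36 and Col27a1, a fibrillar collagen, fell by 2.49 ± 0.28 without TGF-beta, with adjusted p-values of 0.0318 and 0.0063 (edgeR). With TGF-beta Pdk2 had -0.56 ± 0.37 and Col27a1 -0.79 ± 0.32, of the same sign and not passed (edgeR). The interactions of Pdk2 and Col27a1 were 1.85 ± 0.52 (edgeR adjusted p = 0.151) and 1.70 ± 0.43 (edgeR adjusted p = 0.116). Ccl1, a chemokine, had 40.5, 61.7 and 77.3 CPM in TLA, 55.2, 83.6 and 103 CPM in T, 12.9, 5.29 and 8.14 CPM in SLA, and 57.4 and 16.8 CPM in S. The S pair was itself wide apart, and the interaction was 1.75 ± 0.60 (edgeR adjusted p = 0.226). The lactic acid effect on Ccl1 without TGF-beta, -2.18 ± 0.48, did not pass (edgeR adjusted p = 0.116), and with TGF-beta it was -0.44 ± 0.35. Xcl1, another chemokine, had an interaction of 2.09 ± 0.54 (edgeR adjusted p = 0.124). Its effect without TGF-beta, -2.20 ± 0.51, rested on 20 counts in SLA and 59 in S and did not pass (edgeR adjusted p = 0.123). Il9, by contrast, fell by 2.53 ± 0.22 with lactic acid in the presence of TGF-beta and had -1.59 ± 0.54 without it, with an interaction of -0.95 ± 0.61 that did not pass (edgeR adjusted p = 0.541).

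The same contrast at 24 h had 16 of 12617 genes called (0.127%), 2 positive (0.0159%) and 14 negative (0.111%). Of the 77 genes called at 72 h, 74 were measured at 24 h and 48 had the same sign there, 14 of the positive and 34 of the negative genes. Il2 and Lad1 were the 2 of the 77 that were also called at 24 h. In a fit of both times, the interaction at 72 h minus that at 24 h passed for 56 of 14211 genes (0.394%), 33 positive (0.232%) and 23 negative (0.162%), among them 31 of the 77. Gimap3 had an interaction of 1.62 at 72 h and 0.11 ± 0.07 at 24 h, and Cd83 had -2.46 at 72 h and -0.62 ± 0.13 at 24 h (edgeR adjusted p = 0.0559, not passed at 24 h). The Gimap list had a median interaction of 0.13 at 24 h with 5 of 8 positive and 0 called, and 6 of its 8 genes passed in the difference between times. The ATF4 list had a median of 0.01 at 24 h with 13 of 23 positive, and 2 of its genes passed in that difference. The interferon list had a median of -0.02 at 24 h. Immediate early and activation genes had a median interaction of -0.34 at 24 h, with 21 of 25 negative and 6 called. For the first 3 lists the median lactic acid effect at 24 h was alike in both media. With and without TGF-beta it was 0.52 and 0.44 for the Gimap list, 0.55 and 0.60 for the interferon list, and -0.26 and -0.18 for the ATF4 list. For the immediate early and activation list it was -0.003 and 0.28. Gimap3 rose at 24 h by 0.55 ± 0.05 with TGF-beta (edgeR adjusted p = 3.3e-07) and by 0.44 ± 0.05 without it (edgeR adjusted p = 5.7e-06). The 77 genes were picked for their 72 h values, so their sizes at the 2 times are not set against each other as an independent result.

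**Figure D5:**
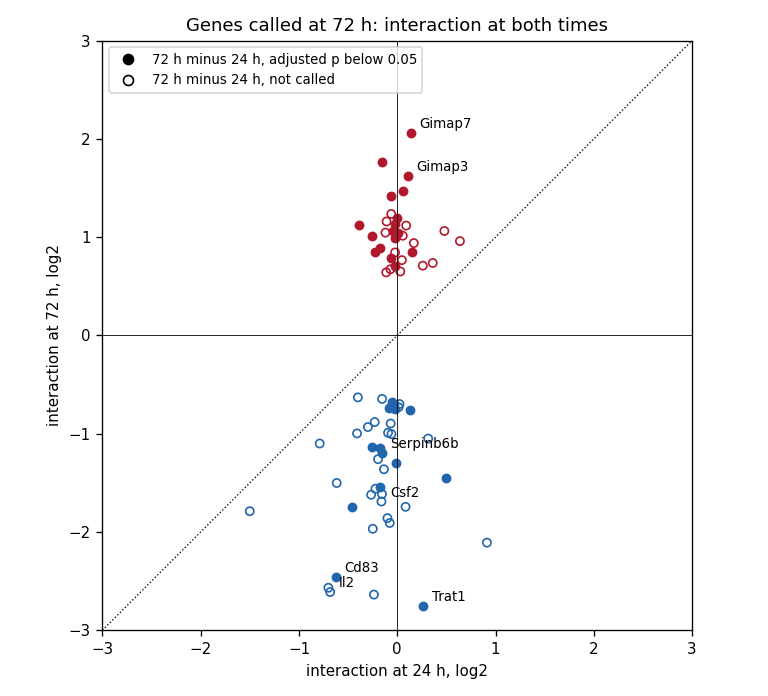
Interaction at 72 h (vertical axis, log2) against the same contrast at 24 h (horizontal axis, log2) for the 74 called genes with a value at both times, positive ones in red and negative ones in blue; filled points passed in the test of the difference between times and the dotted line marks equal values. The points spread along the vertical axis and stay close to 0 on the horizontal one.

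RFP-positive cells (Treg) were sequenced from the TGF-beta media at 72 h, which gives their lactic acid effect but no interaction. In these Treg 2074 of 14049 genes passed (14.8%), 975 higher (6.94%) and 1099 lower (7.82%). Of the 77 genes, 74 had the sign of their interaction as the sign of their lactic acid effect in Treg, and 70 passed in that direction. Cd83 had -2.36 ± 0.13 in Treg, Il2 -3.89 ± 0.65 and Gimap3 1.28 ± 0.10. All 8 Gimap genes rose (median 0.84), and 11 of the 25 ATF4 list genes fell (median -0.43). The Treg libraries carry the same replicate numbers as the Tcon ones, and whether the populations came from the same wells is not given in the sources used here.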

How the data were processed

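Polyadenylated RNA of sorted cells was sequenced as single reads from strand-specific libraries, per the labels' protocols. The deposited values are raw counts per gene from HTSeq 0.12.4 after alignment with STAR 2.7.3a to GRCm39, and DESeq2 1.30.1 is also named, per the submitters' processing notes. Neither a strand setting nor an annotation release is given in the sources used here; overlapping, antisense and near-identical genes (Gimap3 and Gimap5, Ifit3 and Ifit3b) are uncertain. Of 55414 gene IDs 52081 had a symbol in the table used for names. The deposited counts held reads outside genes (5.77 to 10.4% of all reads listed per library), ambiguous reads (1.02 to 1.07%) and low-quality reads (14.7 to 17.0%), which were left out of library sizes.

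Genes were kept with edgeR's filter (minimum count 10, minimum total 15), scaled by TMM and fitted by quasi-likelihood in edgeR 4.0.16 (R 4.3.3, limma 3.58.1) on the 11 libraries, with medium and replicate number as terms, 5 residual degrees of freedom and Benjamini-Hochberg adjustment over all genes at 0.05. Each SE is the size of the log2 value divided by the square root of F. CPM values are gene counts over the TMM-scaled library size. Libraries with one replicate number shifted in parallel around their group means (correlations 0.229 to 0.754 over 15 pairs), against -0.754 to 0.540 for different numbers. Numbers 2 and 3 were not told apart in every pair. TLA replicate 3 had 0.363 with SLA replicate 2 and 0.262 with SLA replicate 3, but 0.271 with T replicate 2 and 0.515 with T replicate 3. The 2 S libraries mirror each other around their mean by construction. The number is kept as a block, and where the pairing comes from is not stated beyond the shared sex. On simulated data with the same design over 13613 genes, 49 of 100 genes with a 2-fold and 80 of 100 with a 4-fold interaction were recovered, with 3 false calls. Named genes were the 10 most positive and 10 most negative protein-coding genes called with a group mean of at least 5 CPM, up to 4 called members of each list (or the member with the smallest p), and a panel of 20 genes; 68 were named, of which 29 were called, and a few results are not reported here. The members and the gene lists were chosen with earlier results of these data known. Alternatives were other libraries in the fit, no block, DESeq2 1.42.0, RLE scaling, no filter and each library left out. The 24 h contrast and the difference between times were added after seeing the data. Promoters are 300 bases from RefSeq, GRCm38.p6.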

Additional observations from a re-analysis of the deposited data

Results flagged for a closer look

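For 56 of 14211 genes the interaction differed between 72 h and 24 h in a single edgeR fit of both times with replicate number within time as a block (adjusted p below 0.05), and 13 of the named genes among them are given here. All values below are the interaction at 72 h minus that at 24 h, in log2 units with SE, and no explanation was tested. Among Gimap genes the difference was 1.52 ± 0.15 for Gimap3 (edgeR adjusted p = 2.2e-05), 1.20 ± 0.15 for Gimap5, 1.17 ± 0.20 for Gimap4, 0.71 ± 0.14 for Gimap1 and 1.91 ± 0.40 for Gimap7. It was 1.93 ± 0.37 for Art2b, 1.49 ± 0.32 for Xdh and 1.51 ± 0.33 for Samd9l. Gbp10, an interferon-induced guanylate-binding protein, had a difference of 1.93 ± 0.40 although its 72 h interaction of 1.31 did not pass (edgeR adjusted p = 0.159). On the negative side Cd83 had -1.84 ± 0.22 (edgeR adjusted p = 0.000387), Serpinb6b -1.04 ± 0.18, Psph -0.89 ± 0.17 and Trat1 -2.96 ± 0.58. The largest adjusted p among these 13 was that of Samd9l, 0.0495.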

How the results depend on the processing

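All 77 genes called in the interaction kept their sign in every one of the 20 settings, and RLE scaling gave 76, 1230 and 16 calls for the interaction, TLA over T and SLA over S, close to the 77, 1255 and 17 reported. With no pairing by replicate number, that is no replicate block, the counts were 1 (Gimap3), 55 and 0, and with all 29 libraries and no replicate block 15, 311 and 10. Of the 77 genes, 63 and 71 had an unadjusted p below 0.05 in these fits. More libraries gave more calls: 207 and 82 for the interaction and SLA over S with the 17 libraries of 72 h, and 652, 2211 and 492 with 29 libraries and the block within time. DESeq2 gave 262 interaction calls, including all 77, and 108 for SLA over S. No filter on low counts gave 811, 2032 and 668. Numbers 1 and 2 alone gave 3, 420 and 1, and numbers 2 and 3 alone 24, 791 and 3. With each library left out the counts ranged over 2 to 357, 532 to 1210 and 0 to 81. Apart from what a smaller number of libraries gives by construction, the cause was not tested. Of named genes none that was called changed sign. Il2ra, near 0, had 0.033 with 17 libraries, 0.023 with 29 and the block, 0.0025 in DESeq2 and with RLE scaling, 0.0012 with numbers 1 and 2 alone, and 0.048, 0.094, 0.0015, 0.096 and 0.051 without S replicate 1, SLA replicate 2, T replicate 2, TLA replicate 2 and T replicate 3. Ikzf2 had -0.18 with numbers 2 and 3 alone and -0.15, -0.15, -0.043, -0.066 and -0.056 without S replicate 1, SLA replicate 1, SLA replicate 2, TLA replicate 2 and T replicate 3. Itgae had -0.15 with numbers 2 and 3 alone, -0.35 without S replicate 1 and -0.0085 without SLA replicate 2, and without S replicate 2 Foxp3 had -1.79 and Cd68 -0.081. Over the fits with a library left out Foxp3 ranged to 4.64, Cd68 to 0.87, Itgae to 0.79, Il2ra from -0.13 and Ikzf2 to 0.19. Depth limits genes with few counts in TLA or T, such as Kcnk10, Timd2 and Il6.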

Other observations

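The remaining called genes, chosen here after their values were seen, are given by name, with no claim about the pathways they belong to. Nfkb2, a subunit of NF-kB, had an interaction of -0.88, with 248, 194 and 180 CPM in TLA, 508, 317 and 351 CPM in T, 515, 425 and 526 CPM in SLA, and 564 and 456 CPM in S. TLA was below every other library. Tnip3, an inhibitor of NF-kB signalling, had -1.50, the stress gene Gadd45b -1.13, the transcription factor Irf5 -0.99, the phosphatase gene Dusp4 -0.70 and the prostaglandin E2 receptor gene Ptger4 -0.63, all with an adjusted p below 0.05 in edgeR. Metabolic genes among them were Slc2a6, a hexose transporter, at -1.54, Dgat2, which makes triglycerides, at -1.62, and Bcat1, which degrades branched-chain amino acids, at -0.67. Lad1, encoding the filament protein ladinin, had 57.9, 57.2 and 58.4 CPM in TLA, 224, 170 and 203 CPM in T, 316, 445 and 379 CPM in SLA, and 320 and 459 CPM in S, with an interaction of -1.75 ± 0.23 (edgeR adjusted p = 0.014).

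Among the positive interactions, Nlrc5, the activator of MHC class I genes, had 404, 543 and 448 CPM in TLA, 267, 295 and 301 CPM in T, 188, 220 and 197 CPM in SLA, and 186 and 225 CPM in S, with TLA above every other library and an interaction of 0.71 ± 0.11 (edgeR adjusted p = 0.032). Uba7, which activates the modifier ISG15, had 1.01, Parp10 0.65, Slfn1 0.89, the pyroptosis effector gene Gsdmd 1.07 and Unc93b1, which carries nucleic acid receptors to endosomes, 0.96. Dgka and Lax1, which restrain T cell receptor signalling, had 1.04 and 1.12. These genes were selected by their values, so the grouping is a description.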
